A study of Nicotiana benthamiana with 3 samples.

Results

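The 68 tags described here are those whose names mark them as selected down in Nicotiana benthamiana leaves overexpressing NbCD1 or NbCD3. They were chosen by name alone, as every tag whose ID begins with NbCD1D (39 tags) or NbCD3D (29 tags), out of 154 tags on the array, and the rule uses no measured value. The letter D was read as down and U as up from the way the array was designed, since the sources used here do not spell it out. A tag stands for 1 transcript. SuperSAGE, the sequencing method that supplied the tags, represents each transcript by a short sequence from near its 3′ end, and tags whose share differed by more than 4-fold between libraries of overexpressing and GFP leaves were placed on the array. The table used here gives tag IDs with no sequence and no gene name, so the members are called by their IDs throughout.

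All leaves came from N. benthamiana, a tobacco relative widely used for transient expression, and all carried Agrobacterium tumefaciens, which delivers the transgene into leaf cells. The 3 groups differed in the gene delivered: GFP (green fluorescent protein, the control), NbCD1 or NbCD3. In every group the gene stood in the GVG cassette, which is switched on by the steroid dexamethasone. Dexamethasone was applied 2 days after infiltration to all groups, the control included, and leaves were taken 4 hours later. Total RNA labelled with biotin was hybridised to 1 array per group. The free text of the NbCD1 sample also carries the word control, and the source name, which gives NbCD1 overexpression, was followed. Infiltrated leaf holds bacteria and plant cells that may or may not express the gene, and leaves without bacteria or without dexamethasone were not analysed here.

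The product of NbCD1 belongs to class II of the ERFs, the ethylene-responsive element binding factors. ERFs are plant transcription factors that act in responses to ethylene, pathogens and stress, and members of class II carry an EAR motif, a short stretch through which they repress the genes they bind. Overexpression of NbCD1 in N. benthamiana is known to bring on cell death resembling the hypersensitive response, the local death of plant cells at a site of attack. The arrays measure RNA levels and do not show which genes a regulator binds.

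The values are normalized intensities on a linear scale, and differences are given on the log2 scale, where -1 is 2-fold lower. With 1 array in each group there is no spread between replicates. No difference below could be tested, and each one describes these arrays. The table came with no background level or detection call, so the size of a difference that ends near the dimmest values is uncertain. All 154 tags had been selected for a difference in an earlier step, and the table names no unchanged reference transcript. The shares over all tags given below hold the 68 D tags and the 86 U tags, and are no unselected background. A level is the RNA of a whole leaf sample, in which fewer cells of a type and less RNA per cell cannot be told apart.

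The pairing of the NbCD3 values with the tag names was checked before any NbCD3 value was used. Across the 68 D tags, log2 levels on the GFP and NbCD1 arrays correlated at a Pearson r of 0.67 (Spearman 0.79). With the names as deposited, the NbCD3 values correlated with GFP at r = -0.19 and with NbCD1 at r = -0.084 across the same tags. Read in NbCD3-first order, in which the NbCD3 lists precede the NbCD1 lists, U comes before D and tags follow by number, the NbCD3 values reached r = 0.65 against GFP and r = 0.90 against NbCD1. Tags are not independent replicates, and these correlations are descriptions.

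The same held within each list. For the NbCD1 D tags, r between NbCD3 and NbCD1 was -0.26 as deposited and 0.92 in NbCD3-first order, and for the NbCD3 D tags it was 0.19 and 0.85. The tags NbCD1D12 and NbCD1D14 moved r in their list. Without them it was -0.43 as deposited and 0.86 in NbCD3-first order, and r between GFP and NbCD1 was 0.86 in place of 0.53. The plot of both pairings shows a scattered cloud with the deposited names and a band along the diagonal in NbCD3-first order, with NbCD1D12 and NbCD1D14 far below it. NbCD3 values are therefore given in NbCD3-first order unless the deposited names are mentioned, and the list values under the deposited names stand beside them. The order was found in these data, by its correlation with the GFP array over all tags, and not in a record of the array. Its r with GFP is therefore no independent check. The GFP and NbCD1 arrays had r = 0.65 over all tags, so its r with NbCD1 is not independent either. Each NbCD3 value of a single tag holds only for the reading named.

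**Figure D1:**
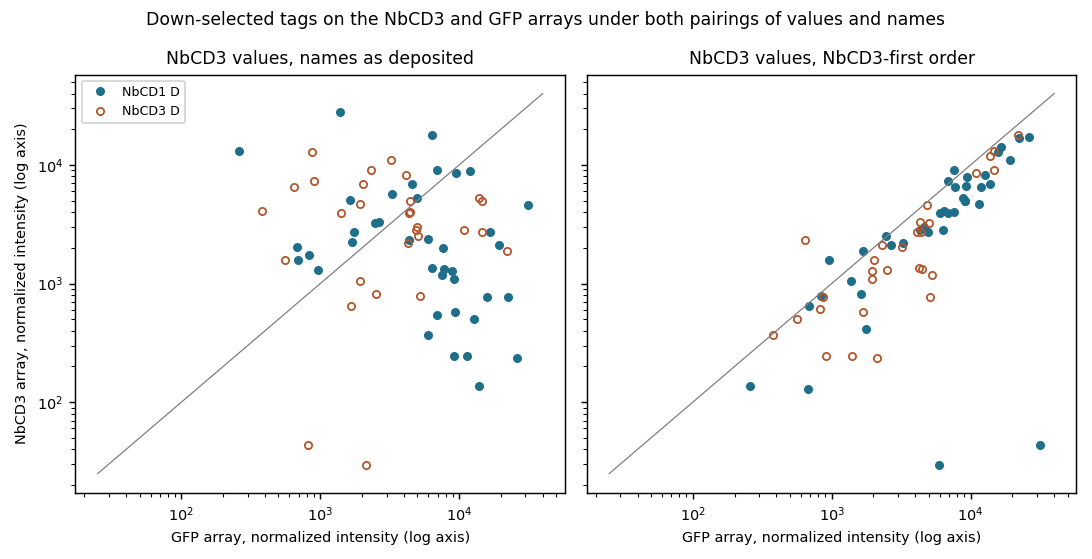
Normalized intensity of the 68 D tags on the NbCD3 array (y axis, log) against the GFP array (x axis, log), with names as deposited (left) and in NbCD3-first order (right). Each point is 1 tag (filled, NbCD1 D, n = 39, and open, NbCD3 D, n = 29), the line marks equal intensity, and r is -0.19 on the left and 0.65 on the right.

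On the GFP array the NbCD1 D tags were the brighter list. Their intensities ran from 259.4 to 31499 with a median of 6893, and the NbCD3 D tags ran from 378.2 to 21997 with a median of 3227, where the median of all 154 tags was 4583. Of the 39 NbCD1 D tags, 10 were at or above 10000 on GFP, and 5 of the 29 NbCD3 D tags were, where 32 of all 154 tags were. Different tags bind with different strength, so these are list summaries of brightness and no order of abundance between transcripts.

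The brightest NbCD1 D tag on GFP was NbCD1D12 and the next was NbCD1D2, at 26322. NbCD1D2 stood at 20524 on NbCD1 and 17366 on NbCD3, log2 differences from GFP of -0.36 and -0.60. The dimmest was NbCD1D7, at 259.4 on GFP, 143.8 on NbCD1 and 136.4 on NbCD3. NbCD1D2 and NbCD1D7 were thus lower on both overexpression arrays by less than 2-fold, unlike NbCD1D12, whose values follow with the largest differences.

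Among the NbCD3 D tags, NbCD3D28 was the brightest on GFP, at 21997, with 15447 on NbCD1 and 18004 on NbCD3. NbCD3D16 was the dimmest, at 378.2, 325.4 and 371.4. Both were lower than GFP by less than 2-fold on both overexpression arrays, with NbCD3D28 at -0.51 and -0.29 on the log2 scale.

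NbCD1 against GFP asked how the D tags stood in leaves overexpressing the ERF-type regulator. Nearly all were lower, most of them by little. Of the 39 NbCD1 D tags, 37 were lower on the NbCD1 array than on GFP and 2 were higher, where 94 of all 154 tags were lower, with a median log2 difference of -0.56 and quartiles of -1.02 and -0.35. The median of all 154 tags was -0.23, so the list median minus that of all tags was -0.33. Of the 39 tags, 10 were at least 2-fold lower, or 25.6%, where 11.7% of all tags were. Within 2-fold of GFP lay 29, or 74.4%, where 69.5% of all tags did. The 86 U tags had 2 members at least 2-fold lower. No D tag of either list was at least 2-fold higher on NbCD1 (0 of 68), where 18.8% of all tags were. The NbCD1 D tags were selected on leaves given the same treatment, so their direction on this array is not independent evidence.

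A group of 3 NbCD1 D tags stood apart from the rest of the list. NbCD1D12 had an intensity of 31499 on GFP, the brightest of all 154 tags there, and of 118.9 on NbCD1, where it ranked 3 from the dimmest, a log2 difference of -8.05. NbCD1D14 had 5951 on GFP and 31.6 on NbCD1, the dimmest value of that array, a log2 difference of -7.56. NbCD1D20 had 9134 on GFP and 270.2 on NbCD1, a log2 difference of -5.08. With 512 intensity units, the 10th percentile of all values, added to every value, these log2 differences were -5.67, -3.57 and -3.62, so their size depends on how the dim values are read. These 3 were the only members of the list at least 4-fold lower on the NbCD1 array, where 4 of all 154 tags were. No other NbCD1 D tag was more than 2.52-fold lower. The 4-fold selection had been made on the share of tags between sequencing libraries, a measure unlike array intensity.

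The remaining 7 tags past 2-fold formed a narrow band. NbCD1D18, the largest of them, went from 19229 on GFP to 7633 on NbCD1, a log2 difference of -1.33, and NbCD1D22 from 6893 to 2776 (-1.31). NbCD1D11 went from 8896 to 3715 (-1.26), NbCD1D15 from 12739 to 5367 (-1.25) and NbCD1D17 from 7543 to 3399 (-1.15). All 5 lay above the median of all tags on GFP. The last 2 lay below it: NbCD1D10 went from 2663 to 1234 (-1.11) and NbCD1D5 from 1757 to 847.5 (-1.05). NbCD1D16, at 6343 and 3189, lay just within 2-fold at -0.99, and NbCD1D5 came within it, at -0.97, when each array was centred on its median.

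The 2 NbCD1 D tags that were higher on the NbCD1 array were both dim. NbCD1D21 had 686.9 on GFP and 1227 on NbCD1, a log2 difference of 0.84. NbCD1D27 had 957.4 and 1053, a difference of 0.14 that turned to -0.39 after quantile normalization. Neither reached 2-fold.

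The NbCD3 D tags, selected on the other overexpressed gene, were lower on the NbCD1 array as well. Of the 29 tags, 27 were lower and 2 higher (94 of all 154 tags were lower), with a median log2 difference of -0.51 and quartiles of -0.86 and -0.22. At least 2-fold lower were 6 of them, 20.7% against 11.7% of all tags. The largest difference was that of NbCD3D29, at 2523 on GFP and 375.6 on NbCD1 (-2.75), the only one past 4-fold. NbCD3D15 followed at 5071 and 1834 (-1.47) and NbCD3D25 at 1405 and 575.6 (-1.29).

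The other 3 sat close to the threshold, NbCD3D4 at 2120 and 999.5, NbCD3D23 at 2024 and 968.8 (-1.06), and NbCD3D10 at 4439 and 2213, 2.01-fold lower. Of these, NbCD3D23 and NbCD3D10 came within 2-fold when each array was centred on its median, at -0.98 and -0.92. The tags that were higher in NbCD1 were NbCD3D5, at 4124 on GFP and 6239 on NbCD1 (0.60), and NbCD3D13, at 1940 and 2340 (0.27). With the added 512 units, 2 of the 6 (NbCD3D29 and NbCD3D15) stayed past 2-fold. That left 2 of the 29 tags at least 2-fold lower, where 10 of all 154 tags were, so the excess over all tags depends on this setting.

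**Figure D2:**
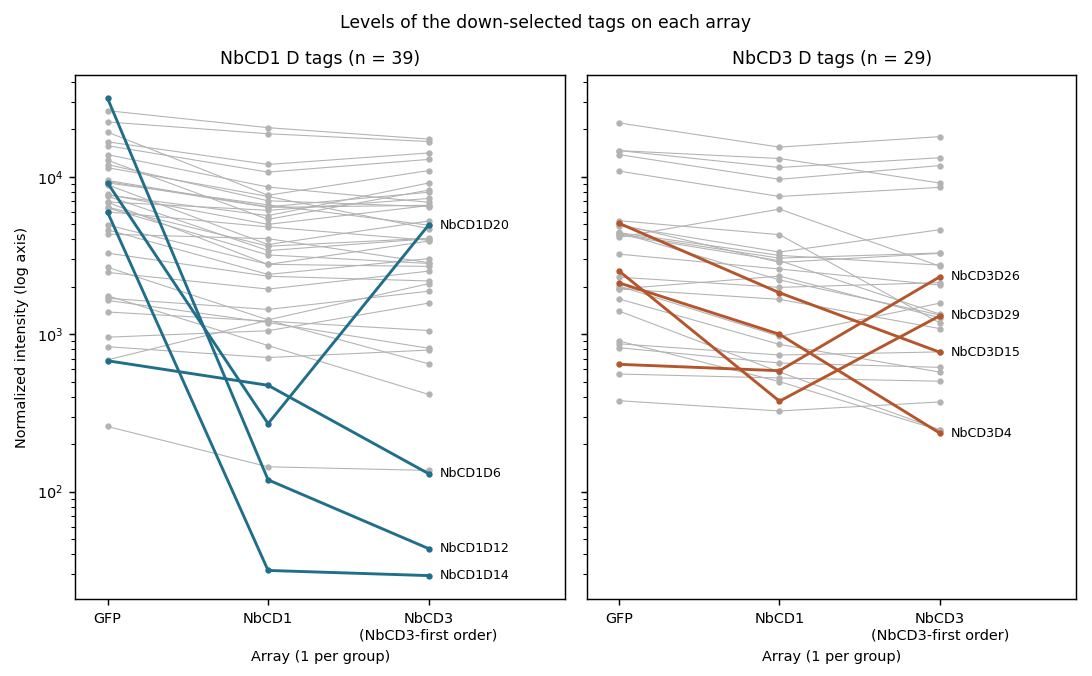
Normalized intensity (y axis, log) of each NbCD1 D tag (left, n = 39) and NbCD3 D tag (right, n = 29) on the GFP, NbCD1 and NbCD3 arrays, 1 array per group, with NbCD3 values in NbCD3-first order. Each line joins the values of 1 tag and coloured lines are named tags: NbCD1D12 goes from 31499 to 118.9 and 43.5, and NbCD1D20 from 9134 to 270.2 and back up to 4939.

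NbCD3 against GFP asked the same of leaves overexpressing NbCD3. It uses the same GFP array as the comparison with NbCD1, so a GFP value that is high or low enters both, and agreement between them is not independent. In NbCD3-first order, 28 of the 29 NbCD3 D tags were lower on the NbCD3 array and 1 was higher, where 88 of all 154 tags were lower. The median log2 difference of the list was -0.61 with quartiles of -1.54 and -0.23, where the median of all tags was -0.16. At least 2-fold lower were 8 of the 29, 27.6% against 12.3% of all tags, and 4 of these were at least 4-fold lower, where 9 of all 154 tags were. Without the lowest 25% of tags, 4 tags of the list were at least 2-fold lower, where 8 of all tags kept were. The NbCD3 D tags were selected as lower in leaves overexpressing NbCD3. Their direction on this array and their excess over all tags are therefore not independent evidence.

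The tag with the largest difference was NbCD3D4, at 2120 on GFP and 234.9 on NbCD3, a log2 difference of -3.17. With the added 512 units it was -1.82, and NbCD3D15 was then lower, at -2.12. NbCD3D15 had 5071 and 768.0 (-2.72), and NbCD3D25 had 1405 and 247.1 (-2.51). NbCD3D19 had 5264 and 1178 (-2.16). None of these 4 tags was above 5264 on GFP. The other 4 were NbCD3D21, at 905.8 and 245.6 (-1.88), NbCD3D10, at 4439 and 1324, NbCD3D18, at 4279 and 1341 (-1.67), and NbCD3D11, at 1676 and 574.4. The bulk of the list, 20 tags or 69.0%, lay within 2-fold of GFP, close to the 68.2% of all tags.

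One NbCD3 D tag was higher on the NbCD3 array, against the direction in its name. NbCD3D26 had an intensity of 644.0 on GFP, 586.5 on NbCD1 and 2320 on NbCD3. Its log2 difference from GFP was 1.85 on NbCD3 and -0.14 on NbCD1. It was the only one of the 68 D tags at least 2-fold higher than GFP on either array in this order, where 19.5% of all tags were at least 2-fold higher on NbCD3.

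The NbCD1 D tags were mostly lower on the NbCD3 array too, 34 of 39, where 88 of 154 tags were lower, with a median log2 difference of -0.61 and quartiles of -0.90 and -0.27. At least 2-fold lower were 8, or 20.5%, against 12.3% of all tags. NbCD1D12 stood at 43.5 (-9.50) and NbCD1D14 at 29.3 (-7.67), the latter the dimmest value of the NbCD3 array. NbCD1D6 had 678.4 on GFP and 130.1 on NbCD3 (-2.38), and NbCD1D5 had 1757 and 414.7 (-2.08). These 4 were past 4-fold as the values stand. With the same constant added to every value as for the NbCD1 array, NbCD1D12 was at -5.85 and NbCD1D14 at -3.58. NbCD1D5 was then at -1.29, and NbCD1D6 came within 2-fold, at -0.89. Without the lowest 25% of tags, the 3 NbCD1 D tags left past 2-fold were NbCD1D16, NbCD1D23 and NbCD1D33. These 4 were left out by that filter, which uses the mean level over all 3 arrays, and a low NbCD3 value itself lowers that mean. The filter therefore does not bear on the size of their differences. With the constant added, the differences of these 4 tags were smaller, so their size depends on how the dim values are read.

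NbCD1D23, at 11434 and 4689 (-1.29), and NbCD1D16, at 6343 and 2817 (-1.17), followed. NbCD1D39 had 1639 and 814.6 (-1.01) and NbCD1D33 had 13835 and 6893, 2.01-fold lower. NbCD1D16, NbCD1D39 and NbCD1D33 came within 2-fold when each array was centred on its median, which raised the median of all tags by 0.198 in this comparison. Relative to the median of all tags, the NbCD1 D and NbCD3 D lists both lay at -0.45. The 5 NbCD1 D tags higher on NbCD3 than on GFP ran up to 0.72, the value of NbCD1D27.

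With the names as deposited, the same comparison had a wider spread, with tags on both sides of GFP in each list. Of the 39 NbCD1 D tags 23 were lower and 16 higher, and of the 29 NbCD3 D tags 17 were lower and 12 higher. At least 2-fold lower were 20 and 11 tags, and at least 2-fold higher 7 and 10, where 35.7% of all tags were lower and 37.7% higher by that much. The share of NbCD1 D tags at least 2-fold lower was 51.3%. In this reading their NbCD3 levels had r = -0.39 with GFP, and no result about the list is drawn from it. The medians were -1.35 and -0.73, against 0.14 for all tags, and that of the NbCD1 D list was -2.39 without the lowest 25% of tags. The largest decreases were listed for NbCD1D2 (-6.81), NbCD1D33 (-6.67) and NbCD1D23 (-5.53), and for NbCD3D4 (-6.18), NbCD3D2 (-4.24) and NbCD3D28 (-3.55). NbCD1D12 was listed at 4615 and NbCD1D14 at 371.4 on the NbCD3 array in this reading, log2 differences of -2.77 and -4.00.

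**Figure D3:**
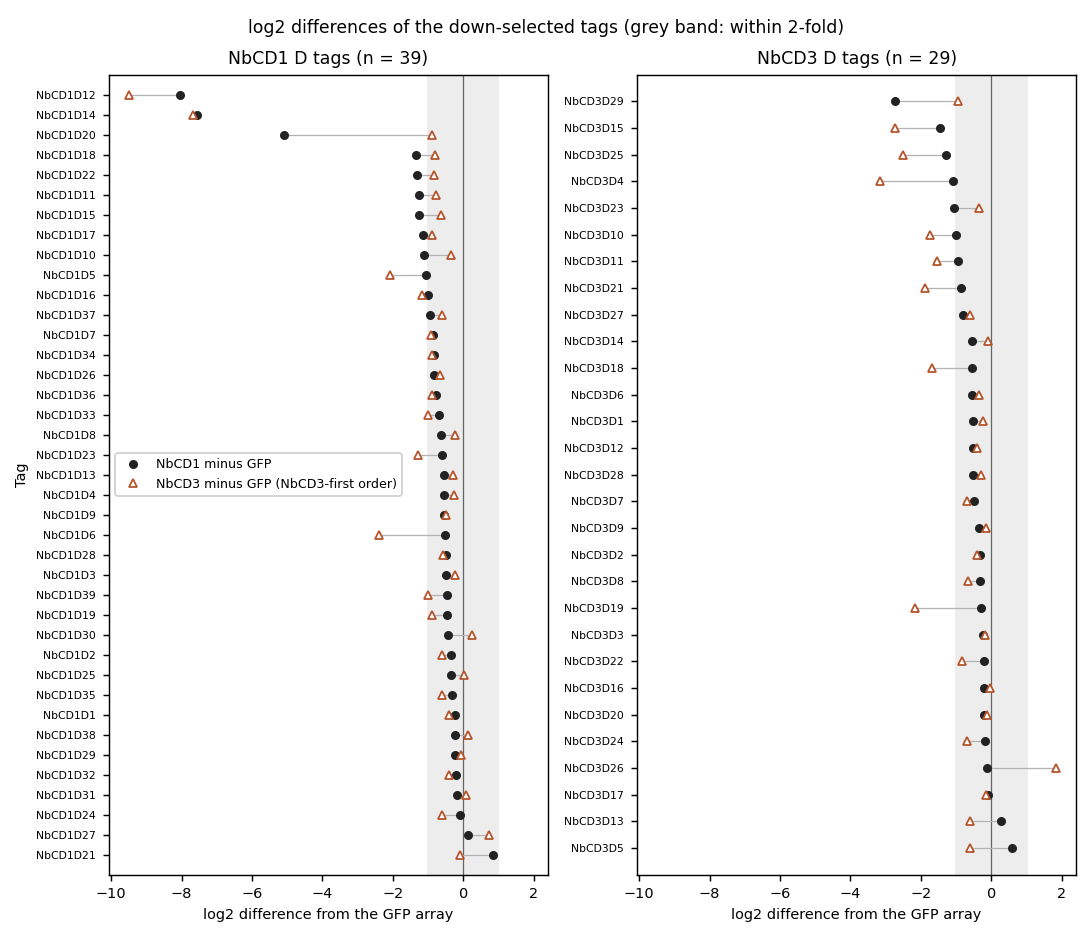
log2 difference from the GFP array (x axis) of each NbCD1 D tag (left, n = 39) and NbCD3 D tag (right, n = 29), on the NbCD1 array (filled circles) and on the NbCD3 array in NbCD3-first order (open triangles). Tags are sorted by the NbCD1 difference and the grey band marks differences within 2-fold, which holds 29 of 39 and 23 of 29 circles and 31 of 39 and 20 of 29 triangles. Of all 154 tags, 69.5% lay within 2-fold on NbCD1 and 68.2% on NbCD3 in this order.

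NbCD3 against NbCD1 set the overexpression arrays against each other without GFP, and so shows where the D tags differed between these arrays, 1 for each gene. Most did not differ by 2-fold in NbCD3-first order: 35 of the 39 NbCD1 D tags and 20 of the 29 NbCD3 D tags lay within it, together 80.9%, close to the 77.9% of all tags. The medians were 0.04 and -0.091, and the latter turned to 0.02 after median centring and to 0.12 after quantile normalization. NbCD1D14 stood at 31.6 and 29.3, a log2 difference of -0.11. NbCD1D12 stood at 118.9 and 43.5 (-1.45), where the difference was 0 after quantile normalization, since the tag ranked 3 from the dimmest on both arrays.

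The D tag that differed most between the arrays was NbCD1D20, 18.3-fold brighter on NbCD3 (4939) than on NbCD1 (270.2), a log2 difference of 4.19 that ran from 2.80 to 4.39 over the alternative settings that gave a value. On NbCD3 it was 1.85-fold below its GFP value of 9134. With the names as deposited its NbCD3 value was 1085, 4.02-fold above NbCD1. Its NbCD1 value ranked 8 from the dimmest on that array, and most values of the NbCD3 array lie above it. The same direction in both readings is therefore no check of either. NbCD1D6 (473.8 on NbCD1 and 130.1 on NbCD3) and NbCD1D5 (847.5 and 414.7) were lower on NbCD3, by 3.64-fold and 2.04-fold. With NbCD1D12 they made 3 NbCD1 D tags at least 2-fold lower, 7.69% of the list, where 15.6% of all tags were. Quantile normalization left 1 of these, and the added constant left 0.

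The NbCD3 D list held more tags that were lower on NbCD3 than on NbCD1 by at least 2-fold, 7 of 29 or 24.1%, against 15.6% of all tags. The list was selected as lower with NbCD3, so this direction is not independent evidence. NbCD3D4 was 4.25-fold lower, at 999.5 on NbCD1 and 234.9 on NbCD3, and NbCD3D19 was 3.64-fold lower, at 4291 and 1178. NbCD3D15 (1834 and 768.0), NbCD3D25 (575.6 and 247.1), NbCD3D5 (6239 and 2704), NbCD3D18 (2935 and 1341) and NbCD3D21 (500.1 and 245.6) were between 2.04-fold and 2.39-fold lower. NbCD3D5 is the tag that was higher than GFP on NbCD1, at 0.60, and lower than GFP on NbCD3, at -0.61. Leaving out the dimmest 25% of all tags left 4 of the 7, and the count with the added 512 units was 3.

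Higher on NbCD3 than on NbCD1 by at least 2-fold were 2 NbCD3 D tags, 6.90% against 6.49% of all tags. NbCD3D26 was 3.96-fold higher, at 586.5 and 2320. NbCD3D29 was 3.49-fold higher, at 375.6 and 1312. The latter thus had its lowest value on the NbCD1 array although its name places it in the list selected with NbCD3.

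With the names as deposited, 17 NbCD1 D tags were at least 2-fold lower and 14 at least 2-fold higher on NbCD3 than on NbCD1, and of the NbCD3 D tags 7 were lower and 12 higher, where 34.4% of all tags were lower and 35.7% higher. The medians were 0.32 and 0.36. The median of all tags in this reading was 0.30.

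Tags of the separate lists may stand for the same transcript, which levels alone cannot settle, and near-equal levels are given as a description. Of 1131 pairs of 1 NbCD1 D and 1 NbCD3 D tag, 5 lay within 0.1 log2 units of each other on both the GFP and the NbCD1 arrays. NbCD1D29 (832.9 and 711.1) and NbCD3D3 (869.5 and 737.8) were also near each other on NbCD3, at 792.9 and 772.3, a gap of 0.038. The gaps on NbCD3 were 0.24 for NbCD1D25 and NbCD3D20, 0.28 for NbCD1D34 and NbCD3D27, 0.47 for NbCD1D5 and NbCD3D11, and 0.87 for NbCD1D23 and NbCD3D6. With the names as deposited the 5 gaps ran from 0.80 to 3.51. Since different tags bind with different strength, near-equal levels do not show that 2 names are 1 transcript.

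The number in a tag's name was set against its level within each list. Tag number and GFP intensity had a Spearman correlation of -0.33 over the 39 NbCD1 D tags and of -0.02 over the 29 NbCD3 D tags, and tag number and the NbCD1 difference from GFP had one of 0.27 and -0.11. These are given as descriptions. The GFP array enters both measures, and what the numbers rank is not given in the sources used here.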

How the data were processed

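Per the submitters' processing notes, the authors used RMA (no version given) for the deposited values, which are linear normalized intensities, 1 for each tag on each array. All 462 have a log2 within 1e-05 of a number with 3 decimals. Scanner, filters and background were not given in the sources used here.

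Each sample's source name set its group. Values were turned into log2 with no pseudocount or filter, and arrays were subtracted over all 154 tags with a 2-fold threshold. With 1 array per group no test was run, and the number of arrays limits the precision. NbCD3-first order writes the names once with the NbCD1 lists first and once with the NbCD3 lists first, U before D and by number, and moves each NbCD3 value to the name at its place in the latter.

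The rule that picks the members uses tag names alone, but it, the lists and the order were set with earlier results of these data known. Tags named are D tags past 2-fold against GFP in NbCD1 or in NbCD3-first order, or between NbCD3 and NbCD1 in that order, those higher in NbCD1 than GFP, the 3 largest decreases of each list with deposited names, some of the brightest and dimmest on GFP, and near-equal pairs. Alternatives were centring on the median or 75th percentile, quantile normalization, leaving out the lowest 25% of tags by mean level, other fold thresholds (1.5 and 4), and adding 512 units, the 10th percentile of all values, as pseudocount. The mean level was that of the log2 values over all 3 arrays. For NbCD1 against GFP it took the NbCD3 values under the deposited names, and otherwise in the reading of the comparison. Python 3.11.15, numpy 2.4.6, pandas 2.3.3 and matplotlib 3.10.9 were used.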

Additional observations from a re-analysis of the deposited data

Results flagged for a closer look

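With the names as deposited, NbCD3D23 and NbCD3D25 passed 2-fold in opposite directions against GFP on the NbCD1 and NbCD3 arrays. NbCD3D23 had log2 differences of -1.06 in NbCD1 and 1.77 in NbCD3, and NbCD3D25 had -1.29 and 1.49. With 1 array in each group, this difference was not tested. With these names 35.7% of all tags were at least 2-fold lower and 37.7% at least 2-fold higher on NbCD3 than on GFP. Tags past 2-fold in opposite directions were counted among the D tags only, so no share over all tags stands beside them. In NbCD3-first order the count of such D tags was 0, and the NbCD3 differences of NbCD3D23 and NbCD3D25 were -0.36 and -2.51.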

How the results depend on the processing

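No paired analysis was possible because there is only 1 array per group, and for the same reason no array could be left out. Counts are D tags lower by at least 2-fold unless stated. Counts over all tags stand beside them, except at 1.5-fold, where none was made. NbCD1 against GFP gave 10 NbCD1 D and 6 NbCD3 D tags. The former became 19 at 1.5-fold and 3 at 4-fold. The latter became 3 without the lowest 25% of tags, 2 with the pseudocount and 1 at 4-fold. Over all tags the count was 18, with 14 under median centring, 22 under 75th percentile centring and 20 after quantile normalization. It was 10 without the lowest 25%, 10 with the pseudocount and 4 at 4-fold. NbCD3 against GFP in NbCD3-first order gave 8 and 8. NbCD1 D became 5 with median centring, 5 with the pseudocount, 3 without the lowest 25%, 24 at 1.5-fold and 4 at 4-fold, and NbCD3 D became 4 without the lowest 25%, 16 at 1.5-fold and 4 at 4-fold. Over all tags the count was 19, with 15 under median centring, 13 with the pseudocount, 8 without the lowest 25% and 9 at 4-fold. With the deposited names NbCD3 against GFP gave 20 and 11, where NbCD1 D became 8 in NbCD3-first order and NbCD3 D became 7 without the lowest 25% and 5 at 4-fold. Over all tags the count was 55, with 44 without the lowest 25% and 43 at 4-fold. NbCD3 against NbCD1 in NbCD3-first order gave 3 and 7. NbCD1 D became 1 after quantile normalization, 0 without the lowest 25%, 0 at 4-fold, 0 with the pseudocount and 5 at 1.5-fold, and NbCD3 D became 4 without the lowest 25%, 11 at 1.5-fold, 1 at 4-fold and 3 with the pseudocount. Over all tags the count was 24, with 16 after quantile normalization, 11 without the lowest 25%, 10 with the pseudocount and 3 at 4-fold. With the deposited names NbCD3 against NbCD1 gave 17 and 7, and 53 over all tags. NbCD1 D became 10 at 4-fold, where all tags numbered 37, and 3 in NbCD3-first order. With these names the NbCD1 D median of 0.32 turned to -1.37 without the lowest 25%. The NbCD3 D median of 0.36 turned to -0.091 in NbCD3-first order. In NbCD3-first order the NbCD3 D median of -0.091 turned to 0.024 with median centring and to 0.12 after quantile normalization. The near-equal pairs numbered 5, and 17 at a tolerance of 0.2. A higher threshold, a filter and a pseudocount lower these counts by construction, and the other causes were not tested. Under median centring, 75th percentile centring and quantile normalization, tags lower than GFP in NbCD1 numbered 37 of 39 NbCD1 D tags each time and from 24 to 27 of 29 NbCD3 D tags. In NbCD3-first order they numbered from 32 to 35 and from 22 to 28. Without these settings 94 of all 154 tags were lower than GFP in NbCD1, and 88 in NbCD3-first order.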
